A study of Caenorhabditis elegans with 6 samples.

Results

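The insulin-like peptide genes of Caenorhabditis elegans were followed in whole worms of 2 mutant strains. They were taken as every gene named ins with a number, plus daf-28, which gave 40 of the 46245 genes listed. DCL289 is mutant for ptr-8(mkc18) as well as for eat-2(ad465) and acs-20(tm3232), whereas DCL33 has only the last 2 alleles. By genotype the strains therefore differ in ptr-8 alone. eat-2 encodes an acetylcholine receptor subunit of the pharynx whose mutants feed slowly, acs-20 an acyl-CoA synthetase and ptr-8 a patched-related membrane protein. Worms grew at 20 °C and were collected at late L4, the last larval stage, with 3 RNA sequencing libraries per strain. Setting the strains side by side asks which transcripts differ with the ptr-8 mutation in this double mutant background. No wild type and no strain with eat-2 or acs-20 alone was analysed here.

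Insulin-like peptides are small secreted hormones, made mostly by neurons and the intestine, that act on the single insulin and IGF receptor of the worm, DAF-2. Peptides that activate DAF-2 keep the transcription factor DAF-16 out of the nucleus and favour growth and reproduction, whereas antagonists oppose this and favour dauer arrest and long life. Feeding state, pheromone and stage set which peptides are made, and DAF-16 in turn represses the transcript of the agonist INS-7.

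Levels are given as scaled FPKM, the deposited FPKM (fragments per kilobase of transcript, relative to library size) divided by 1 scaling factor per library. Fold changes are DCL289 minus DCL33 on a log2(scaled FPKM + 1) scale, which understates differences of low genes, and adjusted p-values come from limma over all 15205 genes tested. A gene was called at an adjusted p below 0.05. ptr-8 itself was at 4.50, 5.12 and 5.73 in DCL289 replicates 1, 2 and 3 and at 23.8, 23.4 and 18.04 in DCL33 replicates 1, 2 and 3, a fall with a log2 fold change of -1.89 (SE 0.15, limma adjusted p = 0.00542). acs-20, mutant in both strains, averaged 47.8 ± 4.33 in DCL289 and 62.1 ± 11.3 in DCL33 (SD, n = 3 each, limma adjusted p = 0.268), and eat-2 was at 0 to 0.0746 in DCL289 and 0 to 0.217 in DCL33 across all 6 libraries. What each allele changes in its gene is not used here, so these levels check the ptr-8 label only in direction. Between 14883 and 15461 genes per library reached a deposited FPKM of 1. Whether replicates were grown as separate cultures is not stated, so a p-value here is set against library-to-library spread that may be technical.

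The peptide genes are short, and short transcripts behaved differently between libraries. The annotated transcripts of the 31 peptide genes tested were 284 to 955 bp long, with a median of 432 bp, against 1304 bp for all tested protein-coding genes. The interval that the authors deposited with each FPKM implies a number of fragments behind it, when its half-width is read as 2 standard errors. For transcripts under 400 bp, 1 implied fragment weighed 3.31, 16.2 and 2.00 times as much as for transcripts of 2000 bp and over in DCL289 replicates 1, 2 and 3, after allowing for length (protein-coding genes with at least 10 implied fragments in every library). In DCL33 replicates 1, 2 and 3 it weighed 5.01, 3.14 and 3.22 times as much. DCL289 replicate 2 therefore stood apart from the other 5 libraries for short genes. The 1275 other tested protein-coding genes under 500 bp had a median log2 fold change of -0.31, against 0.01 for all tested genes. In DCL289 replicates 1, 2 and 3 the median deviation of these short genes from their mean over the libraries was 0.06, -0.51 and -0.02 (log2), and in DCL33 replicates 1, 2 and 3 it was 0.25, 0.21 and 0.13.

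**Figure D1:**
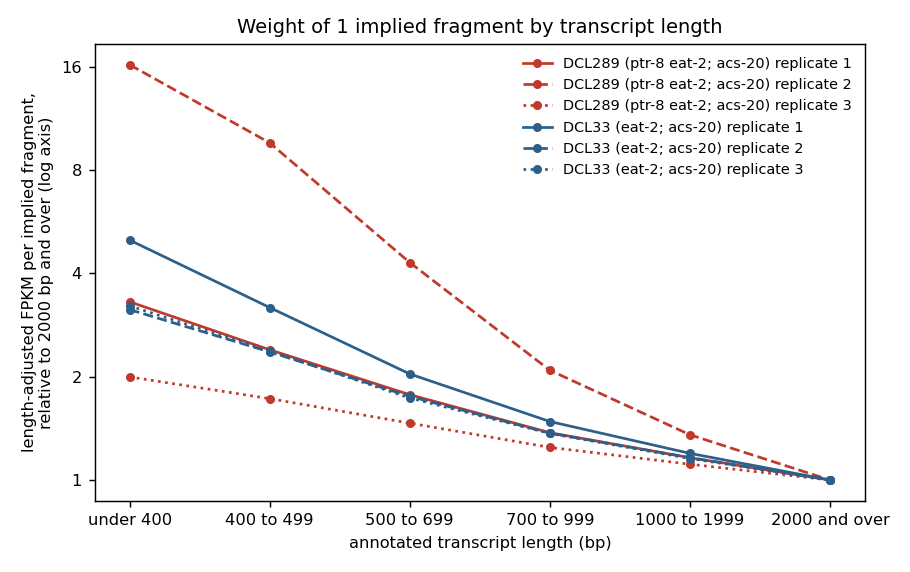
Weight of 1 implied fragment (length-adjusted scaled FPKM per fragment, relative to transcripts of 2000 bp and over, log axis) against annotated transcript length in 6 classes. Each line is 1 library, red for DCL289 and blue for DCL33; under 400 bp DCL289 replicate 2 reaches 16.2 and the other 5 libraries lie between 2.00 and 5.01.

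Most of the family was detected at late L4, at low levels. Of the 40 genes, 24 reached a scaled FPKM of 1 in all 6 libraries and 7 more in 3 to 5 libraries, and these 31 were tested. Another 4 (ins-13, ins-21, ins-25 and ins-32) reached 1 in only 1 or 2 libraries. ins-15, ins-31 and ins-39 stayed below 1 throughout, and ins-19 and ins-38 were listed at 0 in every library. ins-38 is annotated as a pseudogene, and the other 39 as protein-coding genes of 67 to 218 codons. On a stricter view, 16 genes had a lower interval bound above 0 in all 6 libraries. The 8 genes that met the level but not the bound were ins-5, ins-9, ins-10, ins-11, ins-12, ins-22, ins-24 and ins-28. Only 12 of the 31 tested genes had at least 10 implied fragments in every library, and 5 had under 3 in each, so most members were measured on few fragments.

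In scaled FPKM, ins-27 was the most abundant of the family in every library. It stood at 255, 228 and 264 scaled FPKM in DCL289 replicates 1, 2 and 3 and at 318, 567 and 431 in DCL33 replicates 1, 2 and 3. It made up 37.3%, 41.1% and 44.5% of the family's summed FPKM in the DCL289 libraries and 31.1%, 53.3% and 43.7% in the DCL33 libraries. By mean level over both strains ins-7, ins-29, ins-12, ins-35 and ins-17 followed. Of the 39 pairs of neighbours in this order, ins-27 and ins-7 alone had ranges over the 6 libraries that did not overlap, so the order below ins-27 is not fixed gene by gene. In implied fragments, which are not adjusted for length, ins-27 was not first in every library. In DCL33 replicate 1 ins-7 had 226 and ins-27 had 99.9. In DCL289 replicate 2 ins-17 had 166 and ins-27 had 53.3. The rank and shares of ins-27 thus depend on the weight of a fragment in its 310 bp transcript. The family's sum was 684, 556 and 592 in the DCL289 libraries and 1023, 1065 and 987 in the DCL33 libraries. Without ins-27 and ins-7 it was 374, 289 and 291 in DCL289, against 510, 393 and 391 in DCL33. Both sums were lower in every DCL289 library than in any DCL33 library, but the separation was not present in fragments. The summed implied fragments of the family, divided by relative depth, were 1223, 409 and 1581 in DCL289 replicates 1, 2 and 3 and 1238, 1529 and 1354 in DCL33 replicates 1, 2 and 3, with the highest sum in DCL289. These are bulk values of whole worms, in which fewer cells that express a gene and less RNA per cell cannot be told apart.

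**Figure D2:**
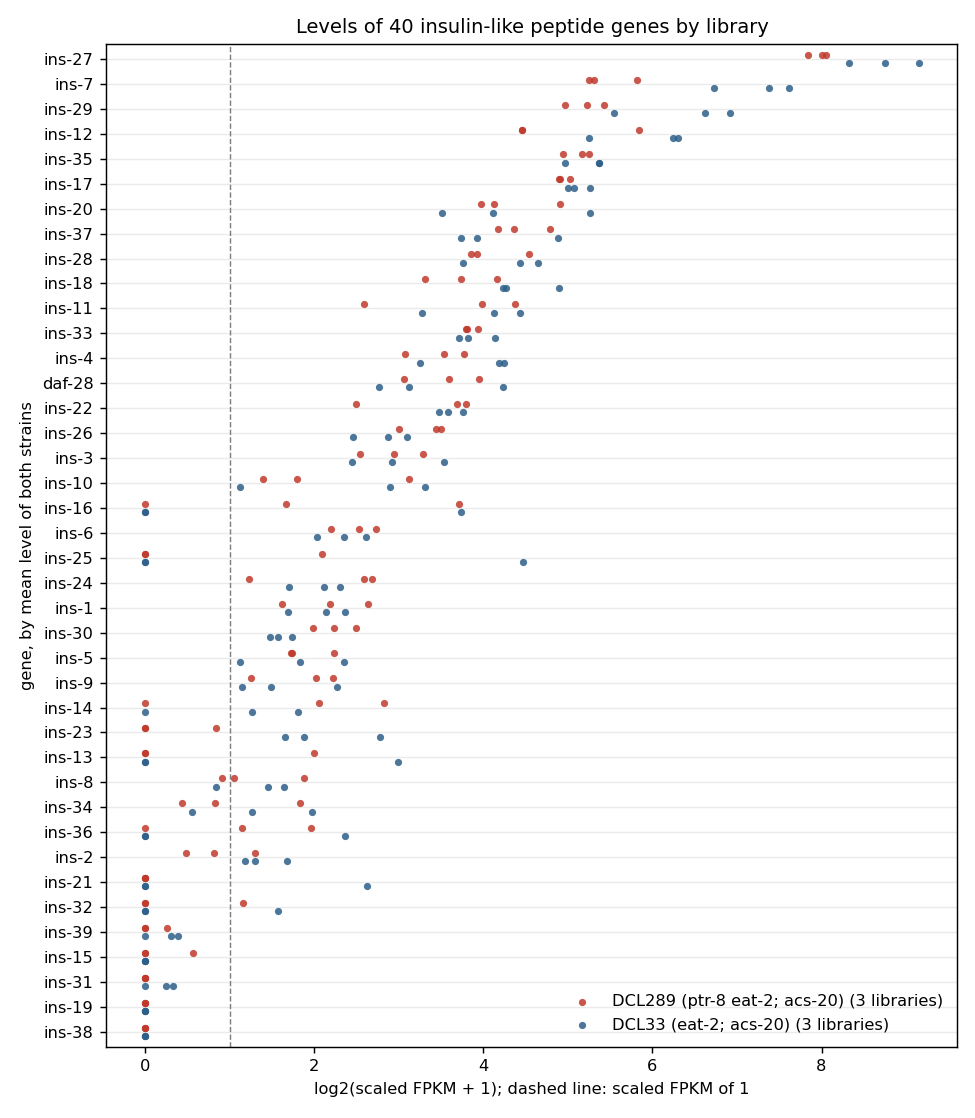
Levels of the 40 insulin-like peptide genes as log2(scaled FPKM + 1) on the x axis, 1 row per gene in the order of mean level. Each point is 1 library, red for the 3 of DCL289 (upper in each row) and blue for the 3 of DCL33 (lower); ins-27 lies furthest right, and 9 genes reach a scaled FPKM of 1 (dashed line) in fewer than 3 libraries.

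ins-7 fell in the strain that carries the ptr-8 mutation, and it was the only member called. ins-7 (WBGene00002090, chromosome IV, 9682011 to 9682928, minus strand) is a protein-coding gene with 2 annotated transcripts of at most 395 bp and 3 exons, and it encodes a DAF-2 agonist made in the intestine and in neurons. It was at 55.2, 38.7 and 37.1 scaled FPKM in DCL289 replicates 1, 2 and 3, against 195, 105 and 165 in DCL33 replicates 1, 2 and 3. Every DCL289 library was below every DCL33 library. The means were 43.6 ± 10.1 in DCL289 and 155 ± 46.0 in DCL33 (SD, n = 3 each), so the DCL289 mean was 28.2% of the DCL33 mean. The log2 fold change was -1.78 (SE 0.27, 95% interval -2.43 to -1.13, limma adjusted p = 0.0337). It accounted for 8.07%, 6.95% and 6.26% of the family's summed FPKM in DCL289, against 19.1%, 9.83% and 16.7% in DCL33.

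The fall of ins-7 kept its direction in every alternative fit, and its call did not. Its gap was also present in the fragment numbers, with 100, 27.4 and 92 implied fragments in DCL289 and 226, 245 and 148 in DCL33. Divided by relative library depth these were 99.1, 17.4 and 112 in DCL289 and 226, 197 and 276 in DCL33, again without overlap. Short genes as a group also lay lower in fragments. With voom on implied fragments the median log2 fold change was -0.63 for the 1275 other short genes and -0.44 for tested members. It was -0.05 for all tested genes. The fragment numbers of ins-7 are thus not free of that shift. A correction that varies with transcript length gave -1.47 (limma adjusted p = 0.0451). The call was lost without replicate 1, 2 or 3 of DCL289 (limma adjusted p = 0.0689, 0.0947 and 0.135) and without replicate 3 of DCL33 (0.138). Without DCL33 replicate 1 or 2 it held (0.0433 and 0.0372). It was also lost with no filter on level (0.0508) and with voom on implied fragments (-2.17, 0.301).

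Over the family, calls were few. The 1 call among 31 tested members is 3.23%, against 2.29% of all tested genes (1.94% called lower and 0.349% called higher) and 4.63% of the other protein-coding genes under 500 bp. The unadjusted p was below 0.05 for 6 members, or 19.4%, against 20.7% of all genes. The groups did not overlap for 5 members that were lower in DCL289 (5 of 31, against 14.1% of all genes) and 1 that was higher (3.23%, against 13.6%). Among the other short genes the same shares were 26.8% lower and 1.80% higher. The fitted log2 fold change was 1 or more in size for ins-7, ins-23, ins-29 and ins-12, or 12.9% of members, against 4.51% of all genes and 16.4% of the other short genes. That of ins-23 rests on very few fragments. The median log2 fold change of tested members was -0.05. It was -0.23 for the 18 with transcripts under 500 bp and 0.08 for the 13 that are longer.

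**Figure D3:**
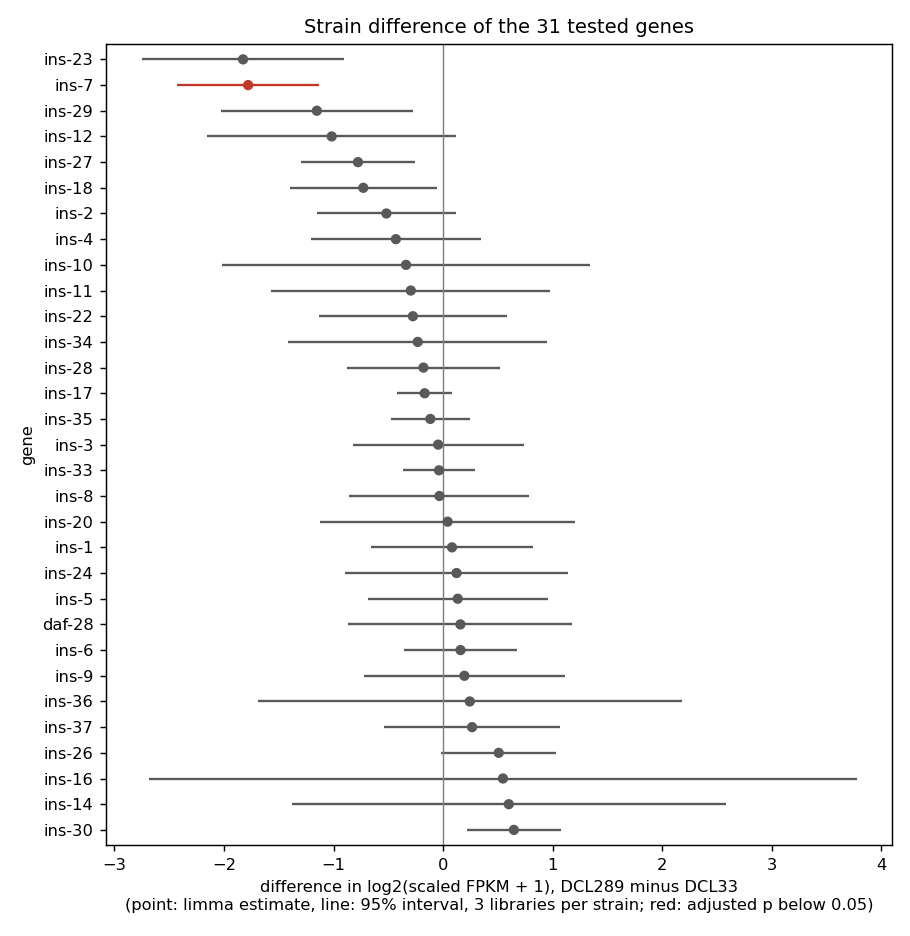
Strain difference of each of the 31 tested genes in log2(scaled FPKM + 1), DCL289 minus DCL33, with its 95% limma interval from 3 libraries per strain. ins-7, in red at -1.78, is the 1 gene called; for 25 of the 31 genes the interval spans 0.

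Among the other members with no overlap between strains, none passed. ins-27 (WBGene00002110, chromosome I, 14026649 to 14027569, plus strand) averaged 249 ± 18.5 in DCL289 and 439 ± 125 in DCL33 (SD, n = 3 each), with a log2 fold change of -0.78 and a limma adjusted p of 0.131. ins-29, which lies near it on the same strand, was at 42.2, 36.4 and 30.3 in DCL289 replicates 1, 2 and 3 and at 120, 45.6 and 97.4 in DCL33 replicates 1, 2 and 3 (-1.15, limma adjusted p = 0.165). The lowest DCL33 library lay close to the highest DCL289 library. ins-18, a DAF-2 antagonist on chromosome I, was at 12.3, 8.89 and 16.95 in DCL289 and at 17.8, 28.7 and 18.2 in DCL33 (-0.73, limma adjusted p = 0.219). For these 3 genes the strains did overlap in depth-scaled implied fragments. With the length correction their log2 fold changes were -0.38, -0.78 and -0.45. ins-27 passed without DCL33 replicate 1 (-0.99, limma adjusted p = 0.0402) and ins-29 without DCL33 replicate 2 (-1.56, limma adjusted p = 0.0469).

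ins-23 and ins-30 completed that set. ins-23 was listed at 0 in DCL289 replicates 1 and 2 and stood at 0.781 in replicate 3, against 2.69, 2.15 and 5.85 in DCL33 replicates 1, 2 and 3 (limma adjusted p = 0.0736). This rests on 1 implied fragment in all DCL289 libraries together and on 1, 1.99 and 1.99 in the DCL33 libraries, so its fitted fold change says little about size. ins-30 was the only member higher in each DCL289 library, at 3.68, 4.65 and 2.96 against 2.33, 1.96 and 1.78 in DCL33 (log2 fold change 0.65, limma adjusted p = 0.129). Its implied fragments, scaled for depth, were 28.7, 23.9 and 24.4 in DCL289 and 13 to 17 in DCL33, also without overlap.

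**Figure D4:**
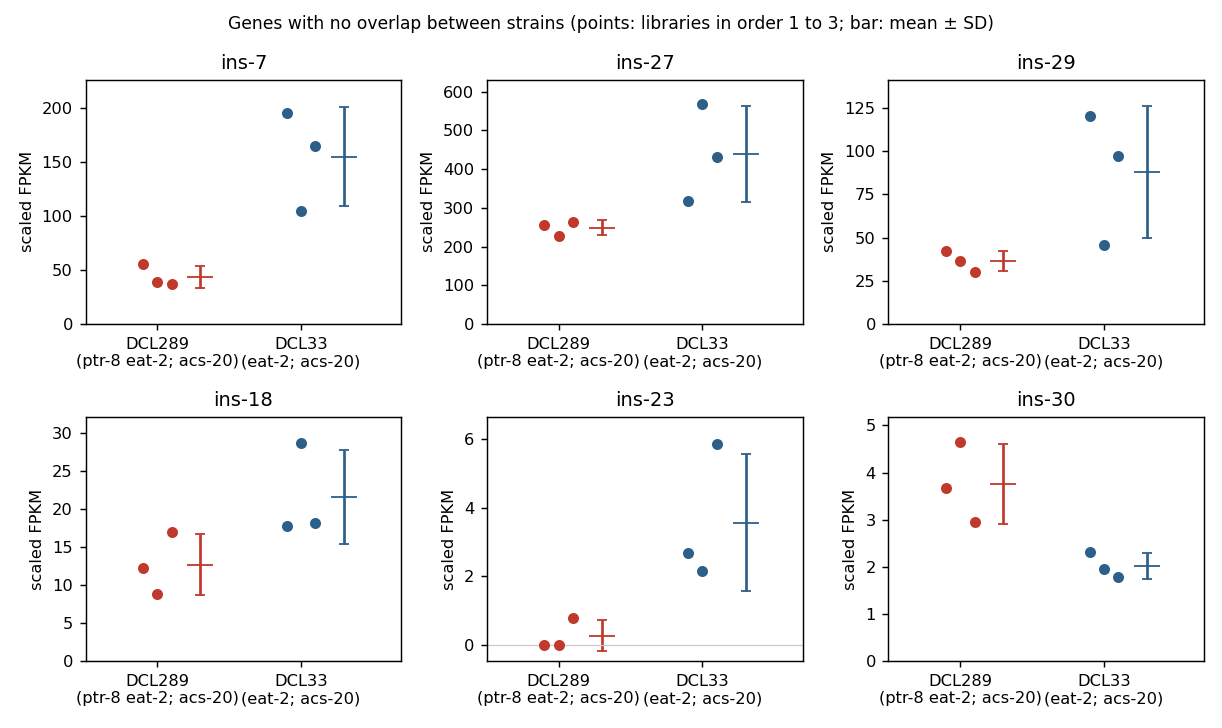
Scaled FPKM of the 6 tested genes whose libraries do not overlap between strains, DCL289 on the left of each panel and DCL33 on the right, with 1 point per library and the mean ± SD of 3 libraries beside them. ins-7 averages 43.6 in DCL289 and 155 in DCL33; ins-30 alone lies higher in DCL289.

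The largest clusters of neighbouring peptide genes, on chromosomes I and II, held fitted values of both signs, and none of their genes was called. On chromosome I, 7 members (ins-24 to ins-30) lie within 25362 bp (14012442 to 14037803). Of the 6 tested there, ins-27, ins-29 and ins-28 on one side of the cluster had log2 fold changes of -0.78, -1.15 and -0.18, and ins-24, ins-30 and ins-26 on the other had 0.12, 0.65 and 0.51. The transcripts of the first 3 are 310, 333 and 350 bp long and those of the last 3 are 478, 675 and 459 bp. With the length correction the values were -0.38, -0.78 and 0.18 for the first 3 and 0.36, 0.74 and 0.76 for the last 3. ins-26 was at 9.89, 10.3 and 7.003 in DCL289 and at 6.30, 4.50 and 7.53 in DCL33 (limma adjusted p = 0.256). On chromosome II, ins-2, ins-3, ins-4, ins-5, ins-6 and ins-20 lie within 22796 bp (5988526 to 6011321), with log2 fold changes from -0.52 for ins-2 to 0.16 for ins-6 and adjusted p-values of at least 0.317. ins-7 has ins-8 as its neighbour on the same strand of chromosome IV. ins-8 was far lower, at 1.07, 2.67 and 0.873 in DCL289 and 1.74, 0.782 and 2.12 in DCL33, and its log2 fold change was -0.03 (95% interval -0.86 to 0.79). It rests on 0.431 to 1.31 implied fragments per library, too few to set beside ins-7.

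The agonists that hold worms out of dauer did not differ detectably. daf-28, a peptide of sensory neurons that promotes reproductive growth, was at 14.4, 11.04 and 7.32 in DCL289 replicates 1, 2 and 3 and at 17.8, 5.78 and 7.72 in DCL33 replicates 1, 2 and 3. Its log2 fold change was 0.16 with a 95% interval of -0.87 to 1.18. ins-4, which acts with daf-28 against dauer entry, was at 10.6, 12.7 and 7.44 in DCL289 and 17.9, 8.51 and 17.3 in DCL33 (-0.43, interval -1.21 to 0.34). ins-6, which also drives exit from dauer, was at 5.65, 4.79 and 3.61 in DCL289 and 5.11, 4.11 and 3.08 in DCL33 (0.16, interval -0.35 to 0.67). All 3 overlapped between strains. ins-3 and ins-33, which promote germline proliferation in larvae, overlapped between strains and had fitted values near 0. ins-33 was at 14.4, 13.0 and 12.9 in DCL289 and 13.1, 16.6 and 12.1 in DCL33, and its interval of -0.37 to 0.29 is among the narrowest here. ins-3 was at 8.76, 4.83 and 6.68 in DCL289 and 10.6, 4.45 and 6.57 in DCL33 (-0.05, interval -0.83 to 0.74). That interval is too wide to call the strains close.

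Peptides of the intestine other than ins-7 gave no call. ins-35, which is made in the intestine and acts redundantly with ins-7, was at 29.8, 34.8 and 37.0 in DCL289 and 30.2, 40.5 and 40.3 in DCL33. Its log2 fold change was -0.12 with an interval of -0.48 to 0.25, which does not reach the interval of ins-7. The difference between the 2 genes was not itself tested. ins-11, an intestinal peptide that responds to pathogenic bacteria, was at 19.8, 14.9 and 5.03 in DCL289 and 16.5, 20.7 and 8.71 in DCL33 (-0.30, interval -1.57 to 0.98). It varied as much within each strain as between them.

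Among antagonists, ins-1 and ins-17 were also near 0. ins-1, the peptide most like human insulin in sequence, was at 3.54, 2.07 and 5.22 in DCL289 and 4.16, 3.39 and 2.24 in DCL33 (log2 fold change 0.08, interval -0.66 to 0.82). ins-17, which promotes dauer formation, was at 28.8, 29.1 and 31.7 in DCL289 and 31.1, 37.4 and 32.7 in DCL33 (-0.17, interval -0.42 to 0.08), the best measured member with 108 to 316 implied fragments per library. ins-18 is given above.

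The remaining tested members overlapped between strains and none was called. ins-12 was at 56.4, 20.94 and 20.98 in DCL289 and 75.02, 78.04 and 37.2 in DCL33 (-1.02, limma adjusted p = 0.281), and with the length correction its log2 fold change was -0.64. ins-20 was at 29.1, 14.7 and 16.5 in DCL289 and 37.3, 16.3 and 10.4 in DCL33, and ins-37 at 26.7, 17.1 and 19.6 in DCL289 and 28.6, 12.3 and 14.2 in DCL33. In both genes replicate 1 was the highest library of its strain. ins-22, whose tagged peptide is a standard marker of dense-core vesicles, was at 11.9, 4.63 and 12.9 in DCL289 and 12.5, 10.1 and 10.95 in DCL33. ins-28 was at 22.25, 13.43 and 14.15 in DCL289 and 24.13, 20.64 and 12.59 in DCL33.

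The lowest tested members lay between 0 and 12.3 in every library. ins-24 was at 5.42, 1.34 and 4.99 in DCL289 replicates 1, 2 and 3 and at 3.33, 2.26 and 3.94 in DCL33 replicates 1, 2 and 3. ins-5 was at 3.72, 2.33 and 2.31 in DCL289 and 4.11, 2.55 and 1.17 in DCL33. In neither gene did the strains separate. ins-9 was at 3.66, 3.07 and 1.37 in DCL289 and 3.83, 1.81 and 1.22 in DCL33. ins-2 was at 1.46, 0.758 and 0.397 in DCL289 and 1.46, 1.26 and 2.19 in DCL33. Both again overlapped between strains. ins-14 was at 3.16, 0 and 6.07 in DCL289 and 0, 1.41 and 2.51 in DCL33, on 0 to 13 implied fragments. ins-34 was at 0.350, 0.775 and 2.56 in DCL289 and 0.474, 2.91 and 1.40 in DCL33, on 1 to 11 implied fragments. The next 3 rest on still fewer, at most 2.25 implied fragments in any library. ins-10 was at 1.62, 7.68 and 2.48 in DCL289 and 8.92, 1.18 and 6.43 in DCL33. ins-36 was at 2.89, 0 and 1.20 in DCL289 and 0, 4.17 and 0 in DCL33. ins-16 was at 0, 12.1 and 2.17 in DCL289 and 12.3, 0 and 0 in DCL33, where each value above 0 stands for 1 implied fragment. Its levels of 2.17 and 12.3 are thus the same amount of evidence.

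Reads of some members cannot be told from those of a neighbour, since whether the FPKM used strand is not stated. Exons of ins-10, ins-34 and ins-36 overlap exons of vps-39, nkcc-1 and Y53H1A.7 on the opposite strand, and those of ins-13 overlap acdh-2 on the same strand. Exons of ins-37, a better measured member, overlap the annotated non-coding genes F08G2.9 and R05D7.8. acdh-2 was called higher, at 2.91 to 5.22 in DCL289 and 0.280 to 1.14 in DCL33 (limma adjusted p = 0.0488). ins-13 was above 0 in 1 library of each strain, at 2.98 in DCL289 replicate 3 and 6.94 in DCL33 replicate 2. ins-25 shows what 1 fragment can weigh: 1 implied fragment stood for 3.26 scaled FPKM in DCL289 replicate 3 and for 21.1 in DCL33 replicate 3. The 5 untested genes above 0 besides these were ins-15, ins-21, ins-31, ins-32 and ins-39, none above 5.15 in any library.

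Genes of the receptor cascade, its output factors, peptide processing and the dauer pathways gave no call. None of 12 tested genes of the receptor and kinase cascade was called by limma (2 at unadjusted p below 0.05, median log2 fold change 0.04), where 2.29% of all genes were. daf-2, the receptor gene, averaged 9.59 ± 0.617 in DCL289 and 9.41 ± 1.36 in DCL33 (SD, n = 3 each), with an interval of -0.28 to 0.35. Among 10 output factors none was called in limma (0 at unadjusted p below 0.05), and daf-16 averaged 42.2 ± 0.737 in DCL289 and 38.1 ± 1.15 in DCL33 (0.15, limma adjusted p = 0.327). Of 12 tested genes for peptide processing and dense-core vesicle release none was called in limma (1 at unadjusted p below 0.05, median 0.00). The same held for 12 genes of the dauer TGF-beta and steroid pathways (1 at unadjusted p below 0.05, median -0.10). Where 2.29% of all genes were called, no call in a list of 10 or 12 genes is not unusual.

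Genes listed as DAF-16 targets went both ways. Of 18 tested, 2 were called lower and 1 higher, with a median of -0.37, where 1.94% of all genes were called lower and 0.349% higher. The unadjusted p was below 0.05 for 6 of the 18, against 20.7% of all genes. fat-5, a palmitate desaturase, averaged 13.7 ± 0.886 in DCL289 and 41.2 ± 9.37 in DCL33 (-1.50, limma adjusted p = 0.0138). lys-8, a lysozyme, averaged 313 ± 25.2 in DCL289 and 538 ± 55.5 in DCL33 (-0.78, limma adjusted p = 0.0339). lys-7, also a lysozyme, averaged 308 ± 20.3 in DCL289 and 154 ± 27.1 in DCL33 (1.01, limma adjusted p = 0.0290). sod-3, a standard DAF-16 reporter gene, was at 1.93 ± 0.852 in DCL289 and 1.27 ± 0.369 in DCL33 and did not pass (0.34, limma adjusted p = 0.482). Uncalled genes also lay lower, as ctl-1 (-0.56, limma adjusted p = 0.0813) and mtl-1 (-0.79, limma adjusted p = 0.260) did. The strains overlapped for mtl-1, at 12.4 to 24.3 in DCL289 and 21.2 to 41.6 in DCL33. The number of calls in this list was 0 without DCL289 replicate 1 or 3 and 1 without DCL289 replicate 2 or DCL33 replicate 2 or 3.

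Levels of some stage and tissue markers also differed between strains. Of 4 collagen genes of the adult cuticle (col-7, col-19, col-62 and col-63) none was called in limma, and 2 were at unadjusted p below 0.05. Their log2 fold changes ran from -0.22 to 1.91, with a median of 1.65. Their mean log2 level was 8.68, 8.23 and 8.62 in DCL289 replicates 1, 2 and 3. In DCL33 replicates 1, 2 and 3 it was 8.22, 7.27 and 6.29. With that level as a covariate the log2 fold change of ins-7 was -1.97 (limma adjusted p = 0.264), and 16 of all genes were called. The collagen level did not overlap between strains, although DCL289 replicate 2 (8.23) and DCL33 replicate 1 (8.22) were nearly equal. With 3 libraries per strain this fit separates it from strain only in part. The loss of the call therefore does not show what stage contributes. Intestine markers summed to 5185 to 5929 in DCL289 and 7197 to 8575 in DCL33, and 1 of the 10, the aspartyl protease gene asp-1, was called lower (2824 ± 239 in DCL289 and 5224 ± 483 in DCL33, limma adjusted p = 0.0380). asp-1 alone was at 2597 to 3074 in DCL289 and 4806 to 5752 in DCL33. The sums thus follow asp-1 and say little about the other markers of the list. The unadjusted p was below 0.05 for 5 of the 10, against 20.7% of all genes, and 1.94% of all genes were called lower. The median of the 10 was -0.05 and none was listed at 0 throughout. Neuron markers summed to 426 to 521 in DCL289 and 491 to 542 in DCL33 (0 of 10 called in limma, 1 at unadjusted p below 0.05, median -0.03). Of 12 markers of amphid sensory neurons, which make several of these peptides, only daf-7, osm-6 and che-2 were high enough to test, str-3 was listed at 0 throughout, and the sum was 9.53 to 9.79 in DCL289 and 8.32 to 9.47 in DCL33. Markers of epidermis, body wall muscle and germline gave no call in limma (0, 0 and 4 genes of 8, 8 and 9 at unadjusted p below 0.05), with medians of -0.16, 0.02 and 0.21. The germline markers had fitted log2 fold changes of 0.0755 to 0.87, all above 0, and summed to 1026 to 1110 in DCL289 and 776 to 928 in DCL33, without overlap. Epidermis markers summed to 629 to 835 in DCL289 and 671 to 1074 in DCL33, and muscle markers to 3305 to 3736 in DCL289 and 3249 to 3699 in DCL33. The part of stage or tissue make-up in the fall of ins-7 was not tested.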

How the data were processed

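For each library the authors deposited FPKM with a lower and an upper bound for 46245 genes, in a Cufflinks layout per the file headers. Tools listed in the submitters' processing notes, with no role given, are TopHat2, HTSeq, DESeq2 and FastQC 0.11.5, and no genome build is given. The files' starts count from 0 and were raised by 1. All 40 members lay within 1000 bp of their place in the Ensembl annotation of WBcel235, which supplied strand, exons and transcript lengths.

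FPKM are not counts, so limma 3.58.1 (R 4.3.3, intensity trend, two-sided) was fitted to log2(scaled FPKM + 1) with strain as the only term and Benjamini-Hochberg adjustment over all genes. Scaling factors (0.869 to 1.33) were trimmed means of log ratios to the geometric mean (30% of ratios and 5% of levels at each end). Genes needed a scaled FPKM of 1 in 3 libraries, and 22932 loci under 200 bp and 10 genes marked FAIL were left out. On simulated data (15205 genes, 200 changed) 48% of 2-fold and 87% of 4-fold changes were recovered, and 6.9% of calls were false. The simulation drew noise independently for each gene and changed no genes of the lowest levels. Its rates therefore do not cover the shared shift of short genes in DCL289 replicate 2 or members on few fragments. Depth is not stated, and the median implied fragments per gene ran from 194 to 567. Implied numbers are not plain counts and cover no spread between libraries.

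The rule for named genes took all members, the tested ones with their value in every library, from each of 12 lists the called genes, daf-2, daf-16 and up to 3 genes of lowest p, and the genotype genes. Of the genes of lowest p, those not called are not reported here with values. sod-3, ctl-1, mtl-1, str-3 and the genes that overlap members lie outside it and were named after their values were seen. Members and lists were chosen with earlier results of these data known. Alternatives were other scalings, a pseudocount of 0.1, no filter, a replicate block, a collagen covariate, voom on implied fragments and each library left out, plus a length-dependent correction (loess) added after the data were seen.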

Additional observations from a re-analysis of the deposited data

How the results depend on the processing

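Leaving out 1 library moved the number of peptide genes called to between 0 and 2 and of all genes called to between 78 (without DCL289 replicate 3) and 765 (without DCL33 replicate 1), against 1 and 348. For DAF-16 targets that number was 0 to 3, for adult-stage collagens 0 to 2, for intestine markers 0 to 1 and for germline markers 0 to 1. ins-7 stayed between -2.04 and -1.59. Its log2 fold change was -1.78 with no filter on level (limma adjusted p = 0.0508), -1.97 with the collagen covariate (0.264) and -2.17 with voom on implied fragments (0.301). It passed with the other scalings, the pseudocount of 0.1, the replicate block and the length-dependent correction. Peptide genes called numbered 2 on values as deposited (ins-7 and ins-23) and 0 with no filter, the covariate or voom. All genes called numbered 16 with the covariate and 72 with voom. The DAF-16 target count was 1 as deposited and with voom and 0 with the covariate. Intestine marker calls were 0 as deposited, with no filter, block, covariate or voom, and the collagens gave 1 call as deposited.

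With replicate number as a block, 160 genes passed, among them ins-7 (adjusted p = 0.0446) and ins-23 (0.0445), 2 members in all. The labels do not say that the numbers pair the libraries. Deviations of same-numbered libraries from their strain mean correlated at 0.249, 0.0471 and 0.0346. For libraries of unlike number the correlations ran from -0.2045 to 0.1536. With so few libraries these values cannot settle whether the numbers pair them.

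The direction of many uncalled genes turned in some fits. Most of these lay near 0 in the main fit, but ins-16 was at 0.55 and ins-10 at -0.34. As deposited, ins-33, ins-3 and ins-8 were at 0.0644, 0.0414 and 0.0552. With the covariate, ins-36, ins-24, ins-5, ins-6, ins-20, ins-37, ins-16, ins-1, daf-28 and ins-9 were at -0.0685, -0.0119, -0.67, -0.20, -1.13, -0.40, -1.17, -0.46, -0.51 and -0.46, and ins-8, ins-34 and ins-35 at 0.24, 0.16 and 0.14. With voom, ins-36, ins-24, ins-5, ins-6, ins-20, ins-37, ins-1, daf-28 and ins-9 were at -0.43, -0.43, -0.32, -0.35, -0.59, -0.16, -0.18, -0.27 and -0.17. The median of all tested members was -0.44 in that fit, against -0.05 in the main fit. With the length-dependent correction, ins-33, ins-28, ins-11, ins-3, ins-17, ins-22, ins-8 and ins-35 were at 0.16, 0.18, 0.0205, 0.10, 0.0053, 0.095, 0.31 and 0.21, and daf-2 at -0.0215. With 1 library left out the ranges were -0.22 to 1.03 (ins-36), -0.12 to 0.0860 (ins-33), -0.44 to 0.0035 (ins-28), -0.14 to 0.59 (ins-24), -0.66 to 0.24 (ins-11), -0.31 to 0.24 (ins-3), -0.19 to 0.43 (ins-5), -0.35 to 0.52 (ins-20), -0.41 to 1.79 (ins-16), -0.51 to 0.14 (ins-22), -0.33 to 0.15 (ins-8), -0.17 to 0.34 (ins-1), -0.63 to 0.12 (ins-34), -0.9985 to 0.0959 (ins-10), -0.15 to 0.59 (daf-28), -0.0511 to 0.51 (ins-9) and -0.0694 to 0.12 (daf-2). The cause of these turns was not tested. The number of members detected in all libraries was 24, and 16 to 27 with the other limits.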
